A study of Mus musculus with 6 samples.

Results

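Pdgfrb, which encodes the beta receptor for platelet-derived growth factors (PDGF), was examined together with the alpha receptor gene Pdgfra and the ligand genes Pdgfa, Pdgfb and Pdgfc. The members were all probe sets, the groups of oligonucleotides that each read a transcript, that the array annotation assigned to just 1 of these 5 genes. These are 5 of the 18193 genes measured, read by 11 of the 45037 probe sets that were not array controls, with 3 for Pdgfra and 2 for each of the other genes. The gene set was put together with the lower Pdgfrb signal of the E2A-deficient arrays already known. Differences between the groups in the members are therefore given as a description, with no test.

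The cells were DN2 thymocytes, early T-cell progenitors that carry neither CD4 nor CD8, sorted from mouse fetal thymus on the FVB background. The 6 Affymetrix arrays, each of total RNA from such cells, were 3 from E2A-deficient and 3 from wild-type mice, and the question was which genes of developing T cells depend on E2A. E2A is the pair of transcription factors made from the gene Tcf3. The mutation itself, the sorting gate, the fetal age, the sex and any pooling of thymi were not given in the sources used here. The labels do not say that the arrays came from separate animals, so errors and p-values cover the spread among these arrays and nothing wider.

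PDGF ligands are disulfide-linked dimers that bring together a pair of receptor chains on the responding cell. The paired receptors phosphorylate each other on tyrosines, and these recruit phospholipase C gamma, phosphatidylinositol 3-kinase, phosphatases and adaptors of the Ras pathway. The alpha receptor binds the A, B and C chains, and the beta receptor binds chiefly the B and D chains. Both receptors are best known from mesenchymal cells such as pericytes and fibroblasts, and in the thymus PDGF receptors are familiar as markers of the mesenchyme that surrounds the epithelium.

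The label of the cells was compared with marker genes. Il2ra, which encodes the CD25 chain, averaged 1005 ± 226 in E2A-deficient and 906 ± 97.5 in wild-type cells (intensity, SD, n = 3 each). The stem-cell factor receptor Kit averaged 346 ± 48.8 and 287 ± 13.3, and the adhesion receptor Cd44 416 ± 4.03 and 404 ± 25.6, in the same order. The co-receptor genes Cd4, Cd8a and Cd8b1, which DN2 cells by definition do not use, had group means between 66.6 and 90.2 and lay below the upper quartile of every array. Of 12 measured DN2 thymocyte markers, 2 rose (Gata3 and Cd7) and 3 fell (Thy1, Cd3e and Notch1) in E2A-deficient cells, against 2.4% of all 18193 genes called higher, 1.06% called lower and 3.46% called in either direction (limma, Benjamini-Hochberg adjusted p under 0.05). Tcf3 itself had intensities of 236, 229 and 281 in E2A-deficient cells, against 477, 421 and 414 in wild-type cells (limma adjusted p = 0.00864 among all probe sets). Its groups did not overlap, and the log2 changes of its other probe sets were -0.49 and -0.24. In the fit over all genes, adjusted for the 5'/3' ratio of the beta-actin control given below, Gata3, Cd7 and Tcf3 lost their calls. Gata3 went from a log2 change of 1.45 (SE 0.135) to 1.37 (SE 0.192, limma adjusted p = 0.0521). Cd7 went from 0.49 (SE 0.0677) to 0.53 (SE 0.0931, limma adjusted p = 0.0983). Tcf3 went from -0.81 (SE 0.0963) to -0.75 (SE 0.135, limma adjusted p = 0.106). Thy1, Cd3e and Notch1 kept their calls, while over all genes the 630 called became 123.

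Pdgfrb was strongly read in these cells and was lower in the E2A-deficient ones. Its brighter probe set, 1436970_a_at, had intensities of 901, 929 and 958 in E2A-deficient cells, against 1740, 1818 and 1654 in wild-type cells. All 3 E2A-deficient arrays lay below all 3 wild-type arrays, and the gap between the groups was far wider than the spread inside either of them. The means were 929.5 ± 28.6 in E2A-deficient and 1737 ± 82.3 in wild-type cells (SD, n = 3 each), a ratio of 0.535. On the log2(intensity + 1) scale, used for all changes below as E2A deficient minus wild type, this was a difference of -0.90 (SE 0.0596). Within each array this probe set stood at the 96.7 to 96.8 percentile of all probe sets in E2A-deficient cells and at the 98.4 to 98.6 percentile in wild-type cells. Brightness also depends on the probes, so such a rank is not a transcript count. In RNA of a whole sorted population, fewer cells with the transcript and less transcript per cell cannot be told apart.

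The other Pdgfrb probe set, 1417148_at, gave intensities of 116.5, 110.2 and 121.9 in E2A-deficient cells, against 191.9, 180.8 and 170.8 in wild-type cells. It too separated the groups with no overlap. The means were 116 ± 5.82 and 181 ± 10.6 (SD, n = 3 each), in that order, a ratio of 0.642 and a log2 difference of -0.64 (SE 0.0674). The probe sets thus gave the same direction with different sizes. The dimmer of them, whose E2A-deficient values were the nearer to the array medians of 77.4 to 79.0, gave the smaller difference. Both Pdgfrb probe sets were called lower in the fit over all probe sets, in which 1.79% of 45037 were called in either direction, 1.21% higher and 0.58% lower. Because the gene was chosen from this contrast, nothing is read from that count.

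**Figure D1:**
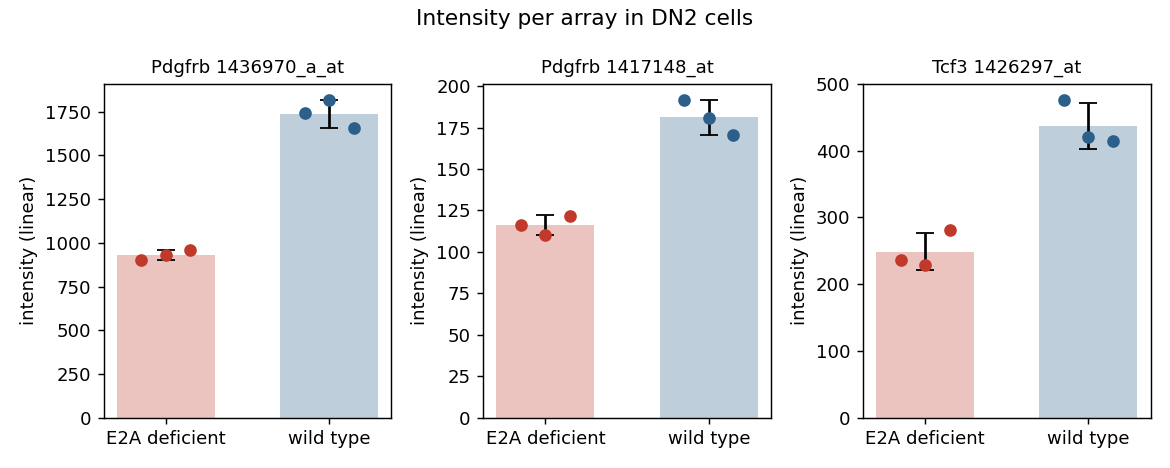
Intensity on a linear axis from 0 in each array for both Pdgfrb probe sets and for the brightest Tcf3 probe set, with E2A-deficient arrays left of wild-type arrays; bars are means of 3 arrays, error bars are SD and points are arrays. In all 3 panels the E2A-deficient points lie below every wild-type point, at 901 to 958 against 1654 to 1818 for the brighter Pdgfrb probe set.

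The arrays differed in some features beside genotype, and Pdgfrb was compared with each. The 5'/3' ratio of the beta-actin control, a measure of RNA integrity and amplification, was 0.165, 0.160 and 0.149 on E2A-deficient arrays, against 0.104, 0.162 and 0.0981 on wild-type arrays. Adjusted for this ratio in the model, the Pdgfrb differences were -0.95 (SE 0.0785) for 1436970_a_at and -0.64 (SE 0.0971) for 1417148_at. The 98th percentile of intensity was 1488, 1478 and 1557 on E2A-deficient arrays, against 1441, 1413 and 1260 on wild-type arrays, so the bright end of the scale was higher on the E2A-deficient ones. Quantile normalization, which equalises it, moved the difference of 1436970_a_at to -1.02 (SE 0.0591). Xist, a transcript of the inactive X chromosome, had intensities of 1901, 1247 and 2154 on E2A-deficient arrays, against 3055, 4456 and 58.7 on wild-type arrays. The Y-linked gene Eif2s3y had 230, 339 and 208 on E2A-deficient arrays, against 204, 58.0 and 343 on wild-type arrays. Wild-type replicate 3, lowest in Xist, and wild-type replicate 2, lowest in Eif2s3y and highest in Xist, thus stood apart in opposite directions. Without wild-type replicate 3 the Pdgfrb differences were -0.94 (SE 0.0633) for 1436970_a_at and -0.68 (SE 0.0711) for 1417148_at. Without wild-type replicate 2 they were -0.87 (SE 0.0633) and -0.64 (SE 0.0802).

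Pdgfra, the partner receptor, was read at the floor in both groups. Its probe set 1421916_at gave 69.0, 69.8 and 69.8 in E2A-deficient cells, against 70.1, 65.3 and 68.2 in wild-type cells, and the groups overlapped. Probe set 1438946_at gave 62.1, 61.5 and 60.7 in E2A-deficient cells, against 62.1, 61.6 and 64.5 in wild-type cells, again with overlap. Probe set 1421917_at gave 64.0, 64.1 and 60.6 in E2A-deficient cells, against 60.3, 59.1 and 60.5 in wild-type cells, and here the E2A-deficient arrays were higher with a narrow margin. The log2 differences were 0.04 (SE 0.0532), -0.03 (SE 0.0511) and 0.07 (SE 0.0525), in the order given. All 3 probe sets stayed under the median of every array. Without detection calls the arrays give no proof of absence for such a gene, only a signal that cannot be set apart from the floor.

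The ligand genes were in the same range. For Pdgfb, whose product binds both receptors, 1450414_at gave 69.9, 70.1 and 68.2 in E2A-deficient cells, against 66.0, 62.1 and 64.5 in wild-type cells, and the groups did not overlap. Its log2 difference was 0.11 (SE 0.0526), the largest among the ligand probe sets. The other Pdgfb probe set, 1450413_at, gave 69.5, 73.8 and 66.6 in E2A-deficient cells, against 74.0, 63.3 and 69.1 in wild-type cells, a difference of 0.03 (SE 0.0748) with overlapping groups. The Pdgfb probe sets therefore did not both separate the genotypes.

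Pdgfa, which encodes the A chain, was the only ligand gene to reach the array medians. Its probe set 1418711_at gave 80.4, 78.3 and 80.0 in E2A-deficient cells, against 84.7, 82.6 and 77.7 in wild-type cells (difference -0.04, SE 0.0561). Its probe set 1449187_at gave 68.2, 62.1 and 59.0 in E2A-deficient cells, against 63.4, 67.9 and 66.8 in wild-type cells (difference -0.07, SE 0.0691). The groups overlapped in both. Pdgfc, whose chain carries a CUB domain that must be cleaved off before the ligand is active, gave 55.9, 55.5 and 55.5 in E2A-deficient cells, against 59.8, 50.0 and 58.0 in wild-type cells by probe set 1419123_a_at. Its probe set 1449351_s_at, which can also hybridise to other transcripts, gave 65.1, 56.8 and 57.7 in E2A-deficient cells, against 61.3, 60.3 and 62.6 in wild-type cells. The Pdgfc differences were -0.003 (SE 0.0754) and -0.04 (SE 0.0673), with overlapping groups.

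The 9 probe sets of the members other than Pdgfrb thus ranged from 50.0 to 84.65 over all arrays, and 8 of them lay below the median on all 6 arrays. None reached the upper quartile of an array, which was between 131 and 136. In 2 of the 9 the E2A-deficient arrays lay above all wild-type arrays and in 0 below, while among all 45037 probe sets 10.1% separated the groups upward and 6.79% downward. The remaining ligand gene Pdgfd, whose D chain binds the beta receptor, had 3 probe sets with group means from 51.7 to 59.2 and log2 differences of -0.02, -0.06 and 0.03. The receptor-like gene Pdgfrl averaged 64.0 ± 2.35 in E2A-deficient and 62.9 ± 1.46 in wild-type cells (SD, n = 3 each). Neither gene was called in either direction in the fit over all genes by limma, and neither had an unadjusted p under 0.05.

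**Figure D2:**
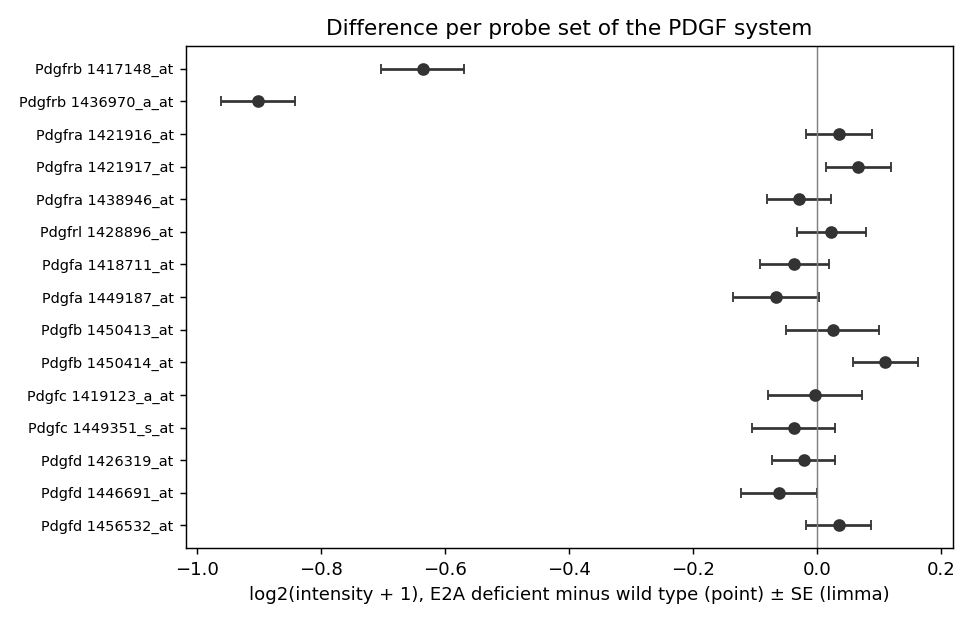
Difference in log2(intensity + 1), E2A deficient minus wild type, with its SE from limma (n = 3 arrays per group) for each probe set of the PDGF receptors and ligands. The Pdgfrb probe sets lie at -0.90 and -0.64, and the probe sets of Pdgfra, Pdgfrl and the ligand genes lie between -0.07 and 0.11.

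**Figure D3:**
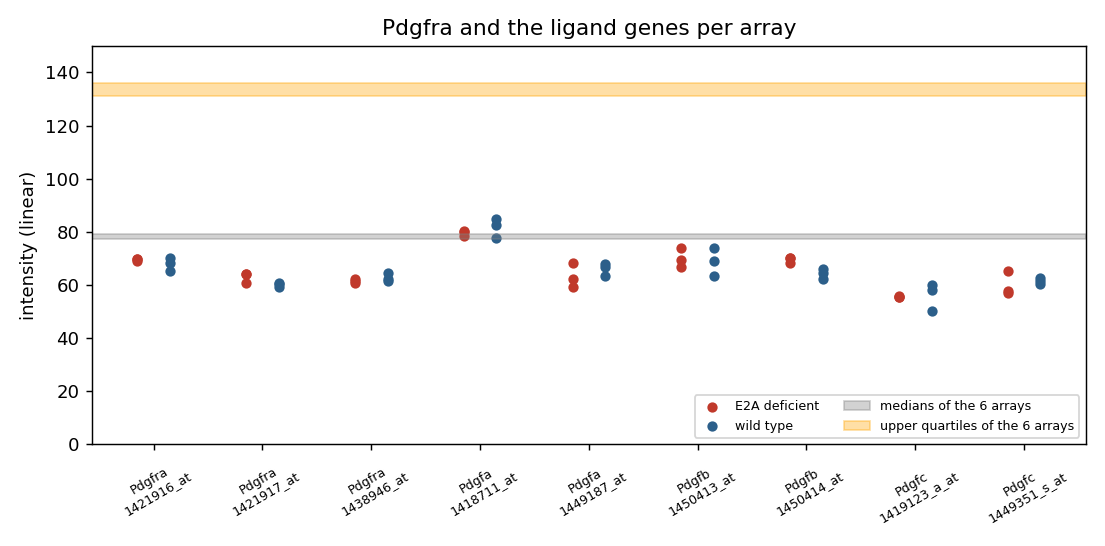
Linear intensity in each array for the 9 probe sets of Pdgfra, Pdgfa, Pdgfb and Pdgfc, with E2A-deficient points left of wild-type points and bands for the medians and upper quartiles of the 6 arrays. Every point lies between 50.0 and 84.65, below the upper quartiles of 131 to 136.

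Because Pdgfrb is a familiar gene of mesenchyme, markers of the stromal cells of the thymus were read on the same arrays. Of 13 measured mesenchymal fibroblast markers limma called 0, an unadjusted p under 0.05 was found for 0, and all 13 lay below the upper quartile on every array. Among them were the collagen gene Col1a2, at 69.5 ± 3.12 in E2A-deficient and 71.0 ± 0.555 in wild-type cells, and the proteoglycan gene Dcn, at 76.0 ± 1.54 and 77.0 ± 4.52 in the same order (SD, n = 3 each). The summed intensity of the 13 genes was 921 to 945 on E2A-deficient and 889 to 951 on wild-type arrays. Of 12 measured pericyte and smooth muscle markers limma called 0, and an unadjusted p under 0.05 was found for 0. Their sums were 917 to 926 on E2A-deficient and 914 to 937 on wild-type arrays, and all 12 lay below the upper quartile on every array. Below the median on every array lay 8 of the 13 mesenchymal and 7 of the 12 pericyte and smooth muscle markers. Rgs5, a pericyte regulator of G-protein signalling, was at 64.3 ± 3.50 in E2A-deficient and 62.6 ± 0.762 in wild-type cells, and the contractile actin gene Acta2 at 115 ± 5.32 and 107 ± 8.84 in the same order. Over these 25 genes the median log2 change was 0.008, against 0.015 over all genes. The members of both lists with the smallest p were Pdpn (-0.08), Fn1 (0.05) and Col5a1 (0.04), and Abcc9 (-0.17), Acta2 (0.11) and Tagln (0.09).

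Markers of endothelial, epithelial, macrophage and platelet-lineage cells were read in the same way. With the mesenchymal and pericyte lists they made 65 measured genes, of which limma called 3, a share of 4.62% against 3.46% over all genes. Of 10 endothelial markers limma called 0, and an unadjusted p under 0.05 was found for 0. Their sums were 838 to 900.1 on E2A-deficient and 846 to 940 on wild-type arrays. Only 8 of the 10 lay below the upper quartile on every array, and the highest group mean of this list was 165. In the epithelial, macrophage and megakaryocyte lists 9 of 11, 10 of 10 and 7 of 9 lay below it on every array. The endothelial genes with the smallest p were Tek (-0.09), Kdr (0.07) and Egfl7 (-0.08). Of 11 thymic epithelial markers 1 rose, the keratin gene Krt18, at 160 ± 23.3 in E2A-deficient and 98.8 ± 13.6 in wild-type cells (SD, n = 3 each; log2 change 0.69, SE 0.135, limma adjusted p = 0.0394), while the defining factor Foxn1 was at 70.0 ± 2.21 and 67.6 ± 1.40. The sums of that list were 985 to 1036 on E2A-deficient and 891 to 897 on wild-type arrays. Of 10 macrophage markers 1 fell, the lysozyme gene Lyz2 (-0.50, SE 0.0747, limma adjusted p = 0.0151), with sums of 721 to 758 on E2A-deficient and 719 to 788 on wild-type arrays. Of 9 markers of megakaryocytes and platelets, which store PDGF, 1 rose, the integrin chain Itgb3 (1.20, SE 0.0835, limma adjusted p = 7.72e-04), at 176 ± 14.8 in E2A-deficient and 76.3 ± 5.26 in wild-type cells. The platelet chemokine gene Pf4 was at 78.8 ± 11.9 and 70.2 ± 3.17 in the same order, and the sums of the list were 1126 to 1357 on E2A-deficient and 917 to 1010 on wild-type arrays. The other Itgb3 probe set gave 0.07 and was not called, and the mean of both was at 0.63. In each of these 3 lists 2 genes had an unadjusted p under 0.05, the called gene and 1 other. The others were Krt8 (0.46) of the epithelial, Cd68 (0.18) of the macrophage and Itga2b (0.46) of the megakaryocyte list, which did not pass after adjustment. The part of these cells in the Pdgfrb difference was not tested. Krt18 was not called without E2A-deficient replicate 1 (limma adjusted p = 0.120) or 3 (0.133) or wild-type replicate 1 (0.0768), 2 (0.0597) or 3 (0.0887), over all its alternatives 0.00497 to 0.371, and its probe set was not called in the fit over all probe sets (0.0583). Lyz2 was not called without E2A-deficient replicate 1 (0.0577) or 2 (0.0591) or wild-type replicate 3 (0.0501), over all its alternatives 0.00153 to 0.200.

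**Figure D4:**
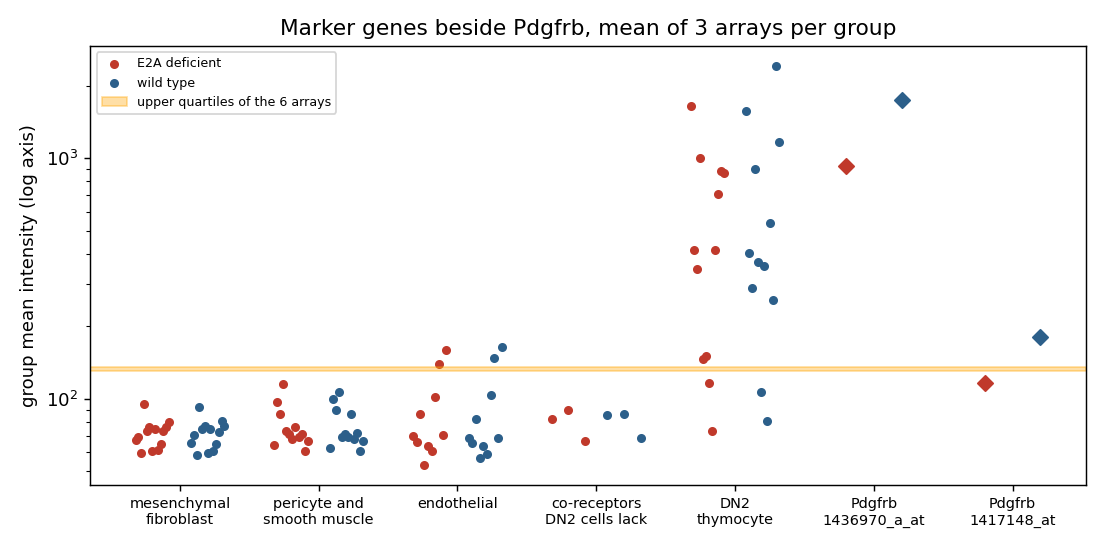
Mean intensity of 3 arrays per group on a log axis for each measured gene of 5 marker lists and for both Pdgfrb probe sets (diamonds), with E2A-deficient points left of wild-type points. Brightness also depends on the probes, so heights are not compared between genes. Every mesenchymal and pericyte marker lies below the array upper quartiles of 131 to 136 in both groups. So does Pdgfrb 1417148_at in E2A-deficient cells, at 116. The endothelial markers do not all lie below them, and their highest group mean is 165.

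The genes around the receptor in its pathway were then counted by limma in the fit over all genes, in which 3.46% were called. Over the lists of PDGF-related genes, 87 genes were measured, of which 3 rose and 1 fell, a share of 4.60%, and their median log2 change was 0.014. That share is close to the one over all genes, and nothing particular to the pathway is read from it. Without any 1 of the arrays the number called was 1 or 2, and after adjustment for the beta-actin 5'/3' ratio it was 0.

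Among 29 measured signalling genes 2 rose and 1 fell. Plcg1, the phospholipase C gamma that docks on the activated receptor and also serves the T-cell receptor, had intensities of 248, 281 and 288 in E2A-deficient cells, against 446, 347 and 461 in wild-type cells. Its groups did not overlap, and the change was -0.61 (SE 0.119, limma adjusted p = 0.0392). Akt1, the kinase downstream of phosphatidylinositol 3-kinase, averaged 404 ± 37.4 in E2A-deficient and 291 ± 13.7 in wild-type cells (SD, n = 3 each), a rise of 0.47 (SE 0.0819, limma adjusted p = 0.0254). Rasa1, a Ras GTPase-activating protein that binds the beta receptor, rose by 0.49 (SE 0.0995, limma adjusted p = 0.0465), with means of 270 ± 16.9 in E2A-deficient and 193 ± 23.4 in wild-type cells. The other 26 signalling genes, among them the adaptor Grb2 (0.20) and the phosphatase Ptpn11 (-0.06), did not pass.

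These 3 calls did not hold in most repeats with 1 array left out. The other probe sets of Plcg1 (-0.12 and -0.08), of Akt1 (0.08, 0.10 and 0.005) and of Rasa1 (0.23 and 0.03) were not called in the fit over all probe sets. In that fit the brightest probe sets of Plcg1 (limma adjusted p = 0.0575) and Rasa1 (0.0668) were not called either, and that of Akt1 was (0.0374). Plcg1 was not called without E2A-deficient replicate 1 (limma adjusted p = 0.131), 2 (0.0960) or 3 (0.0945) or wild-type replicate 1 (0.0965) or 3 (0.104), Akt1 not without E2A-deficient replicate 1 (0.0800) or 3 (0.0959) or wild-type replicate 2 (0.0724) or 3 (0.0787), and Rasa1 not without any 1 array (0.0585 to 0.149). Over all alternatives their adjusted p ranged from 0.0127 to 0.223 for Plcg1, 0.0197 to 0.256 for Akt1 and 0.0252 to 0.403 for Rasa1. Adjusted for the beta-actin 5'/3' ratio, the changes were -0.36 for Plcg1, 0.44 for Akt1 and 0.39 for Rasa1. With the mean of its probe sets standing for each gene they were -0.27, 0.16 and 0.25, in that order.

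Of 18 measured genes that damp receptor signalling 1 rose. It was Spry2, which encodes Sprouty2, an inhibitor of the Ras pathway below receptor tyrosine kinases. Spry2 had intensities of 196, 154 and 145 in E2A-deficient cells, against 89.8, 94.7 and 84.9 in wild-type cells, a change of 0.86 (SE 0.115, limma adjusted p = 0.00982) with no overlap. Its other probe set, a dim one, gave 0.12, and the mean of both was at 0.49. The related inhibitors Spry1 (0.11) and Spry4 (-0.02) did not pass. Adjusted for the beta-actin 5'/3' ratio, Spry2 was at 0.75 and not called (limma adjusted p = 0.155).

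Of 22 immediate-early genes, which growth factors switch on within minutes, limma called 0, and an unadjusted p under 0.05 was found for 1. That gene was Klf6 (0.19, SE 0.0531), followed by Myc (-0.32) and Klf4 (0.22), which did not pass. Fos averaged 119 ± 106 in E2A-deficient and 68.7 ± 14.9 in wild-type cells (SD, n = 3 each). Its E2A-deficient arrays gave 55.1, 60.0 and 241, so the wide spread came from replicate 3. Egr1 was at 85.6 ± 6.45 in E2A-deficient and 77.7 ± 4.42 in wild-type cells. In this list 16 of the 22 genes lay below the upper quartile on every array.

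Of 10 proteases and extracellular partners that activate or bind PDGF limma called 0, and an unadjusted p under 0.05 was found for 1. It was Furin, the convertase that trims the A and B chains, at 98.8 ± 0.174 in E2A-deficient and 83.5 ± 4.98 in wild-type cells (SD, n = 3 each; log2 change 0.24, SE 0.0622). Pcsk5 (-0.10) and the co-receptor Nrp1 (-0.20) had the next smallest p. Among 6 measured genes of the other class III receptor tyrosine kinases, the family of Pdgfrb, and their ligands, limma called 0, and an unadjusted p under 0.05 was found for 1. It was Kit (0.26, SE 0.105), and Csf1r (-0.07) and Kitl (0.05) came next.

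Csf1r is also the next protein-coding gene to one side of Pdgfrb on its chromosome in the RefSeq gene table of the mouse, so the genes on both sides were read as well, a choice made after the Pdgfrb values were seen. Of the 10 nearest protein-coding genes, 5 on each side, 8 were measured and 0 of these were called by limma or had an unadjusted p under 0.05. Csf1r had intensities of 94.8, 95.4 and 97.2 in E2A-deficient cells, against 112, 87.3 and 104 in wild-type cells, and the groups overlapped. Its other 2 probe sets gave -0.01 and -0.02. On the other side Cdx1 changed by 0.02, Slc6a7 by 0.06, Camk2a by -0.12 and Arsi by -0.04, and beyond Csf1r the values were 0.13 for Hmgxb3, 0.004 for Slc26a2 and 0.06 for Pde6a.

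The genes whose profile over the 6 arrays was nearest to that of Pdgfrb 1436970_a_at were Hemgn, Serinc3, B3gnt5, Ermp1 and Crip1. Nearness was the root-mean-square difference in log2(intensity + 1) after each gene was centred on its own mean. It was 0.0726 for Hemgn and 0.0849 for Crip1, the first and the last of the 5, against 0.144 for the other Pdgfrb probe set and a median of 0.468 over all genes. Hemgn, a nuclear protein of blood progenitors, had intensities of 233, 241 and 220 in E2A-deficient cells, against 410, 435 and 382 in wild-type cells. Serinc3, a multi-pass membrane protein, had 965, 1000 and 1089 in E2A-deficient cells, against 1718, 1818 and 1627 in wild-type cells, by a probe set of the kind that may bind several transcripts. Both held the groups apart by a margin like that of Pdgfrb, and wild-type replicate 3 was the lowest of its group in each.

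B3gnt5, a glycosyltransferase of glycolipid synthesis, averaged 86.9 ± 7.28 in E2A-deficient and 159 ± 9.14 in wild-type cells (SD, n = 3 each). Ermp1, a metallopeptidase of the endoplasmic reticulum, averaged 277 ± 8.12 and 479 ± 14.9 in the same order. Crip1, a small LIM-domain protein, averaged 1062 ± 20.8 in E2A-deficient and 1858 ± 168 in wild-type cells. The log2 changes of the 5 genes, by their brightest probe sets, lay between -0.86 and -0.76. Other probe sets gave -0.07 for B3gnt5, and -0.54 and -0.11 for Ermp1. For Serinc3 they gave -0.84, -0.82, -0.77, -0.09 and -0.09. These 5 genes were picked for their likeness to a gene that separates the groups, so their own separation is not a separate result. In the fit over all genes 52 genes, Pdgfrb included, had a change at least as low as that of Pdgfrb.

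**Figure D5:**
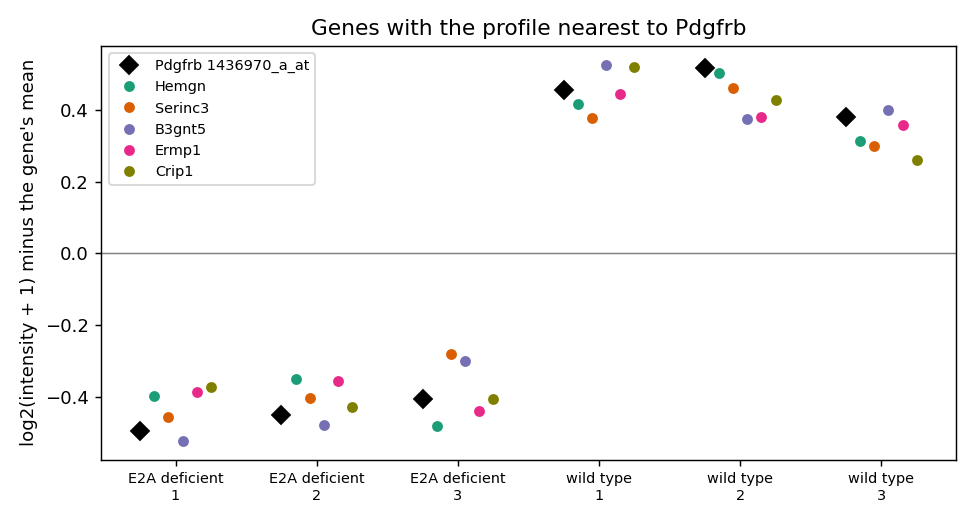
log2(intensity + 1) of each array minus the gene's mean over the 6 arrays, for Pdgfrb 1436970_a_at (diamonds) and the 5 genes with the smallest root-mean-square difference from it (circles), with E2A-deficient arrays left of wild-type arrays. All 6 genes lie below 0 in the 3 E2A-deficient arrays and above 0 in the 3 wild-type arrays.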

How the data were processed

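The authors deposited 1 linear intensity per probe set and array. RMA is the only tool named, per the submitters' processing notes, and its version, the return to a linear scale and any later scaling were not given in the sources used here. From these, log2(intensity + 1) was computed with no further normalization. The 64 control probe sets were left out. The array annotation named 1 gene for 34945 of 45037 probe sets, and the brightest probe set stood for a gene. E2A-deficient and wild-type arrays were compared with limma 3.58.1 (R 4.3.3), p-values being adjusted by Benjamini-Hochberg and called under 0.05, per probe set and per gene, and the steps were tested on simulated data. The members, lists and tests were chosen with earlier results of these data known. Genes named were the members, Tcf3, called list members (otherwise the 3 with the smallest p) and the 5 nearest profiles. The chromosomal neighbours and further list genes (Il2ra, Cd44, Krt8, Cd68, Itga2b, Sla, Grb2, Ptpn11, Spry1, Spry4, Fos, Egr1, Col1a2, Dcn, Rgs5, Foxn1 and Pf4) were named after their values were seen, the list genes as examples that did not pass. Of the list genes, 13 were not analysed here. The number of arrays limits the precision. Figures were drawn with matplotlib 3.10.9.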

Additional observations from a re-analysis of the deposited data

How the results depend on the processing

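Over the alternatives run, Pdgfrb 1436970_a_at stayed between -1.02 (quantile normalization) and -0.87, and between -0.94 and -0.87 with 1 array left out; Pdgfrb 1417148_at stayed between -0.68 and -0.59. Probe set 1436970_a_at has no value without shared probe sets. That setting dropped all probe sets named _a_at, _s_at or _x_at, the kinds that may read several transcripts. The array annotation assigned 1436970_a_at to Pdgfrb only. The 804 called probe sets became 471 with the replicate block, 114 with adjustment for the beta-actin 5'/3' ratio, 531 without shared probe sets and 358 to 563 with 1 array left out. The 630 called genes became 123 with the beta-actin ratio and 320 to 533 with 1 array left out. Deviations of same-numbered arrays from their group means had correlations of 0.0413, 0.0414 and -0.036 between the groups. For differently numbered arrays they were -0.0763 to 0.037. With 3 arrays per group these values cannot decide whether the replicate numbers pair the arrays. Under the replicate block Plcg1 (limma adjusted p = 0.0720), Akt1 (0.0529) and Krt18 (0.0816) lost their calls and Sla (0.0307) and Krt8 (0.0332) gained one, so 3 PDGF-related genes, against 4, and 3 markers of other cell types, against 3, were called. The 4 called PDGF-related genes became 0 with the beta-actin ratio, 2 with the mean of probe sets and 1 to 2 with 1 array left out, and the 3 called markers of other cell types 1 with the beta-actin ratio and 1 to 2 with 1 array left out. With the beta-actin ratio Csf1r was at 0.11, Egfl7 at 0.0264 and Cd4 at 0.0259, all opposite in sign to the main value; Egfl7 was at 0.0106 with the mean of probe sets and Cd8a at -0.0381 without shared probe sets. With 1 array left out the ranges of named list genes that crossed 0 were -0.00638 to 0.0391 for Pdgfrl and -0.17 to 0.00742 for Csf1r. They were also -0.0237 to 0.113 for Fn1, -0.00588 to 0.109 for Col5a1 and -0.159 to 0.0116 for Egfl7. Those of Cd8a (-0.00708 to 0.108) and Cd8b1 (-0.091 to 0.0086) crossed 0 too. Among the members, those of Pdgfb 1450413_at (-0.0326 to 0.0786) and Pdgfc 1419123_a_at (-0.0803 to 0.0463) crossed 0. Pdgfc 1419123_a_at, at -0.003 in the main fit, was also above 0 with quantile normalization (0.00323), array weights (0.011) and the beta-actin ratio (0.13). None of the list genes whose sign turned was called in any setting. The cause of these moves was not tested. The mean of probe sets also moved Tcf3 to -0.52, Notch1 to -0.91, B3gnt5 to -0.46, Ermp1 to -0.48 and Serinc3 to -0.56.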
